A study of Mus musculus with 20 samples.

Results

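The mature and the immature fraction of medullary thymic epithelial cells (mTEC), labelled mTEChi and mTEClo, were compared within mice of the genotype labelled Trp53-cHyper, across all genes. The libraries were chosen by their labels and not by a measured value: 3 of cHyper mTEChi and 3 of cHyper mTEClo, which stand for 10 of the 20 samples and 6 of the 12 libraries of the series, since replicates 1 and 2 were each listed as a pair of sequencing runs. The other 6 libraries, 3 of mTEClo and 3 of mTEChi from mice labelled Trp53-WT, shared the statistical fit and were used to test where the change in cHyper differed from that in WT. Trp53 encodes the transcription factor p53, and the series title names p53 repression. The sources used here do not give what cHyper stands for, the promoter or cell type in which the allele acts, the gates that separated mTEChi from mTEClo, or whether animals were pooled. All groups came from mice of 4 to 5 weeks of age, whose thymus stroma was digested with enzymes and enriched for EpCAM-positive cells before 75000 mTEC were sorted per sample.

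The thymic medulla is where developing T cells meet self-antigens of the whole body. Immature mTEC carry basal keratins, laminins and the chemokine CCL21, while mature mTEC carry abundant MHC class II and costimulatory molecules, switch on Aire and transcribe very many genes otherwise restricted to other tissues, each in a small share of cells. Past the Aire stage some mTEC take on the programs of tuft, endocrine, microfold, gut, muscle, airway or skin cells. p53 is a stress-activated regulator of genes for cell cycle arrest, DNA repair and cell death.

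Levels are given in CPM (counts of fragments scaled to the library's total) on the scale of the TMM normalization, in the order of replicates 1, 2 and 3, and a gene was called when its edgeR adjusted p was under 0.05. Library totals in cHyper ran from 23.48 to 47.93 M fragments, and replicate 3 of every group was the shallowest, carried high Xist and held 0 fragments of Ddx3y, a Y-linked gene. Without replicate 3 of each group 10923 genes were called higher and 7829 lower in cHyper mTEChi. Whether replicates came from different animals is not stated, and the p-values then describe only how these libraries spread. In bulk RNA a larger number of cells of 1 type and more RNA per cell cannot be told apart. The sorted fractions differed in known markers of maturation. Every mTEChi library lay above every mTEClo library in Aire, Cd80 and H2-Aa, and below it in Krt14, Trp63 and Ccl21a. These genes were picked as examples, and some other members of their lists went the other way or had no call, as given below. Genes named for the largest changes were taken only where the groups did not overlap. For those genes, among them Aire, H2-Aa, Krt14 and Ccl21a, the lack of overlap was fixed by that choice. The share of all genes without overlap is not given here. Since the gates are not given, a marker that was used to sort would differ by design.

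Most genes differed between the fractions in cHyper. Of 28932 genes tested of the 51810 in the table, 11193 were higher and 7455 lower in mTEChi (38.7% and 25.8%, together 64.5%). The sizes were lopsided: 9269 genes rose and 2843 fell at least 2-fold by the fitted value, and 2853 rose against 5 that fell at least 32-fold. A total of 1409 tested genes had 0 fragments in the cHyper mTEClo libraries and 1406 of these were called higher, against 4 genes with 0 fragments in cHyper mTEChi. Such genes could pass the filter on low counts only through other libraries, and 6048 tested genes reached its level in at least 3 mTEChi libraries but not in 3 mTEClo libraries. Among the 20922 genes averaging 1 CPM or more across the 12 libraries the directions were even, with 6933 higher and 6972 lower and a median log2 change of -0.07, against 0.13 over all tested genes.

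**Figure D1:**
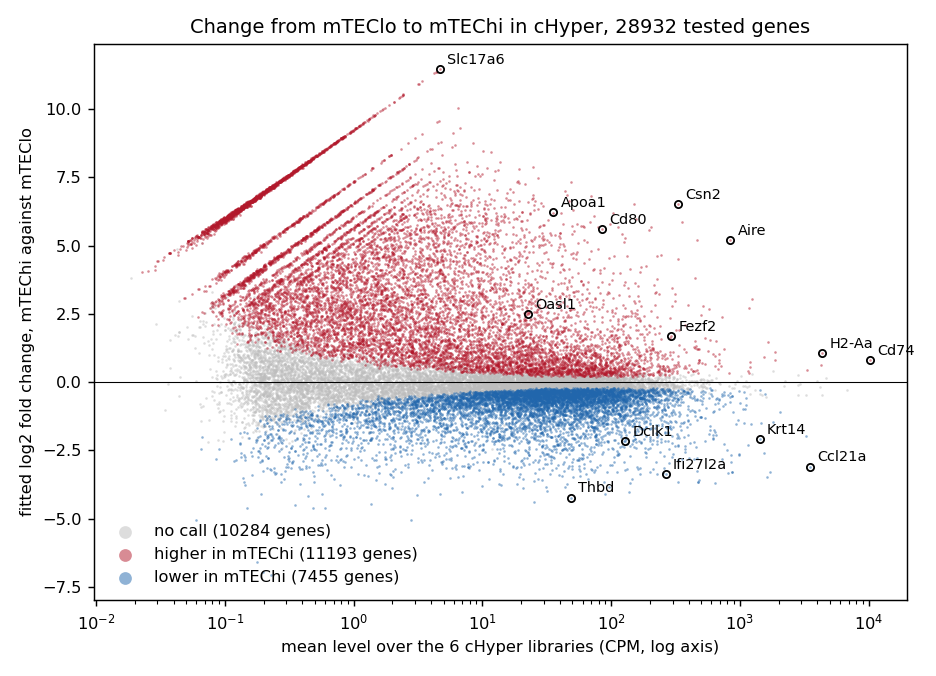
Fitted log2 fold change between mTEChi and mTEClo in cHyper against the mean level over the 6 cHyper libraries in CPM on a log axis, 1 point per tested gene, red where called higher, blue where called lower and grey where not called, with example genes circled. The 11193 higher genes spread upward at low levels, where the uppermost diagonal band holds genes with 0 fragments in mTEClo, while the 7455 lower genes crowd at higher levels and smaller changes.

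More genes were detected in cHyper mTEChi than in cHyper mTEClo at the same depth. With every library thinned to 22023800 fragments, the number expected with at least 5 fragments was 22287, 22433 and 23423 in mTEClo and 27864, 27837 and 27187 in mTEChi. The groups did not overlap, and the means of 22714 ± 618 and 27629 ± 383 (SD, n = 3) differed by 4915 genes. An exact permutation test with 3 libraries a group cannot go below p = 0.1, which is the value it gave. The direction of change went with the level in CPM, not adjusted for gene length, that a gene had in WT mTEClo. Those libraries are outside the contrast but share its fit. They are also of the same fraction as its reference, so part of this ordering is built in. At 1 to 10 CPM there, 34.9% of genes rose and 21.7% fell. At 10 to 100 CPM 18.3% rose and 44.4% fell, and at 100 to 1000 CPM 9.61% rose and 61.8% fell. By annotation, 59.0% of 1837 long intergenic noncoding RNAs rose and 9.80% fell, against 41.9% and 30.7% of 18996 protein-coding genes. The classes were not matched for level or for passing the filter through mTEChi alone.

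Of 18 regulators of mTEC 10 rose in cHyper mTEChi, with Aire far ahead, 4 fell and 4 had no call, beside 38.7% of all genes higher and 25.8% lower. Aire (chromosome 10, 78030022 to 78043610 on mm10, ENSMUSG00000000731), the autoimmune regulator that drives transcription of tissue antigens, stood at 38.6, 51.4 and 43.5 CPM in the mTEClo libraries and at 1769, 1884 and 1279.9 CPM in the mTEChi libraries. The groups were far apart, and mTEChi replicate 3 was the lowest of its group. The change was 36.9-fold (log2 5.21, SE 0.19, edgeR adjusted p = 1.07e-10). Sirt1, a deacetylase known to act on Aire, rose from 42.3, 49.2 and 44.6 to 408, 459 and 413 CPM (9.41-fold), and the groups did not overlap. Fezf2 (chromosome 14, 12342094 to 12348189, ENSMUSG00000021743), a zinc finger factor that drives tissue antigens apart from Aire, stood at 172, 129 and 117 CPM in mTEClo and 477, 448 and 411 CPM in mTEChi. It was already present in every mTEClo library and rose 3.20-fold (log2 1.68, SE 0.14, edgeR adjusted p = 9.48e-08).

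The interferon regulatory factors Irf4 and Irf8 rose 3.31-fold and 2.31-fold. Smaller rises were called for Foxn1, the master regulator of thymic epithelium (log2 0.59, SE 0.15), Tnfrsf11a, the receptor RANK that starts mTEC maturation (0.51, SE 0.11), and Spib, an ETS factor (0.40, SE 0.10). Pax1, a factor of the early thymus, went the other way: it held 326, 354 and 291 CPM in mTEClo and 67.9, 72.7 and 90.6 CPM in mTEChi. Every mTEClo library was above every mTEChi library, and the fall was 4.20-fold (log2 -2.07, SE 0.12, edgeR adjusted p = 2.13e-09). The list median was 0.45. The falls of Hdac3 and Chd4 were not called with library totals as scaling or without cHyper mTEClo replicate 2, which left 2 falls, and that of Chd4 also not without cHyper mTEChi replicate 2.

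**Figure D2:**
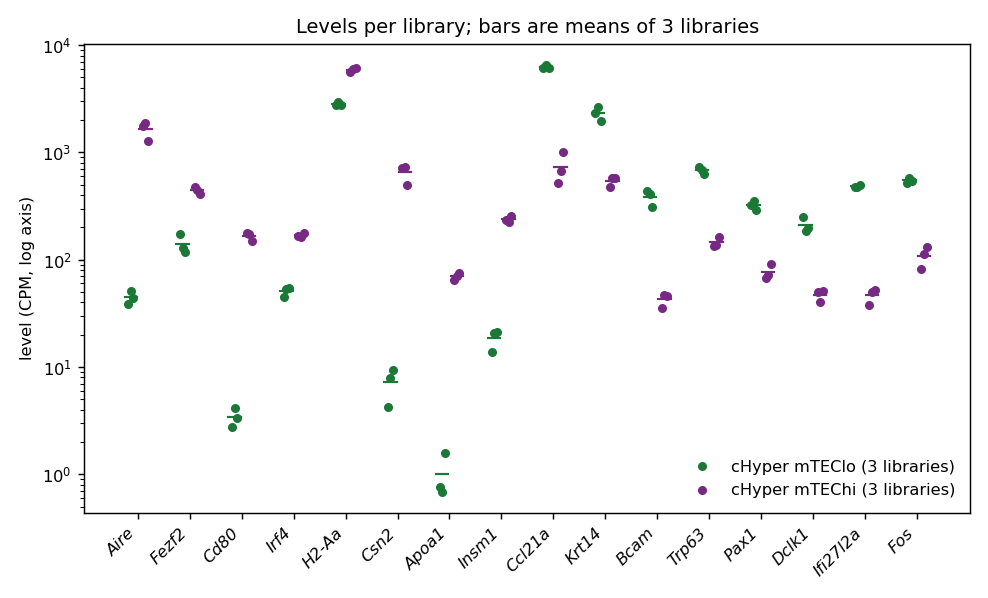
Level of 16 genes in each cHyper library in CPM on a log axis, with mTEClo in green, mTEChi in purple and a bar at the mean of 3 libraries. From Aire to Insm1 the mTEChi libraries lie above the mTEClo libraries and from Ccl21a to Fos below them, with no overlap in any of the 16 genes. Some of the genes were picked among those without overlap.

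Genes of antigen presentation to CD4 T cells rose, the costimulatory ligands by far more than MHC class II itself. Cd80 (chromosome 16, 38455561 to 38496335, ENSMUSG00000075122), which binds CD28 on T cells and is a usual mark of mature mTEC, stood at 2.79, 4.11 and 3.38 CPM in mTEClo and 176, 172 and 151 CPM in mTEChi. The mTEClo libraries were all close to the bottom of the range, and the rise was 48.5-fold (log2 5.60, SE 0.22, edgeR adjusted p = 1.34e-10). Its relative Cd86 rose from 0.799, 0.574 and 0.529 to 40.4, 40.01 and 37.9 CPM (60.7-fold). Tnfrsf9, the receptor 4-1BB, rose 36.7-fold, Icosl, the ligand of ICOS, 5.13-fold, Ctss, the protease that trims the invariant chain, 4.97-fold and Cd40 3.71-fold.

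The class II genes were abundant in both fractions. The alpha chain gene H2-Aa held 2756, 2970.3 and 2738 CPM in mTEClo and 5608, 6011 and 6063 CPM in mTEChi, a 2.09-fold rise with no overlap (log2 1.06, SE 0.13, edgeR adjusted p = 3.37e-06). Cd74, the invariant chain, rose from 7011, 7473 and 7795 to 12261, 12679 and 13795 CPM (1.74-fold), which was the largest gain in CPM of the comparison. H2-Ab1 rose 1.56-fold and H2-Eb1 1.37-fold, and the peptide exchange regulators H2-Oa and H2-Ob 2.64-fold and 3.32-fold. Ciita, the class II transactivator, held 398, 407 and 335 CPM and 478, 485 and 406 CPM. These groups overlapped and the change was not called (log2 0.27, SE 0.11, edgeR adjusted p = 0.0508). It was called in 8 of 20 alternatives, among them the replicate number as a block (0.27, edgeR adjusted p = 0.00278) and DESeq2 (adjusted p = 0.00718). H2-DMa was the other member with no call (log2 -0.14, or 0.02 with library totals as scaling, and called lower with replicates 1 and 2 only, at -0.27, edgeR adjusted p = 0.0243). So 16 of 18 rose, beside 38.7% of all genes, with a median of 0.93 over the class II and costimulation list. Markers of myeloid and dendritic cells, which share many of these genes, rose beside them from a summed 69.3 to 90.3 CPM in the mTEClo libraries to 577 to 642 CPM in the mTEChi libraries. Their part in these rises was not tested.

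Genes of the NF-kB pathway, which acts downstream of RANK and CD40 in mTEC, went both ways. Rel, a subunit of the pathway, rose from 30.1, 28.4 and 33.2 to 93.1, 82.7 and 95.5 CPM (2.96-fold), and Traf6, the adaptor next to RANK, from 62.4, 62.9 and 60.6 to 148, 146 and 145 CPM (2.36-fold). Nfkbia, the inhibitor IkB-alpha and itself a target of the pathway, rose 2.83-fold, and Nfkb2, of the noncanonical arm, 1.57-fold. Among the genes that fell were Ltbr, the lymphotoxin beta receptor, from 96.6, 89.8 and 91.8 to 29.04, 33.3 and 38.3 CPM, and Tnfaip3, the inhibitor A20, from 248, 216 and 198 to 76.95, 71.6 and 87.4 CPM. Both falls left the groups without overlap (2.77-fold and 2.81-fold lower). Relb, the other noncanonical subunit, had no call (log2 0.29, edgeR adjusted p = 0.0722), but was called in 5 of 20 alternatives, among them the replicate block (0.30, edgeR adjusted p = 0.034). Of 18 genes 10 rose and 4 fell, beside 38.7% and 25.8% of all genes, and 13 rose with RLE scaling, library totals, DESeq2 or the replicate block.

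The immature and basal program fell together. Ccl21a (chromosome 4, 42772860 to 42773993, ENSMUSG00000094686), which draws positively selected thymocytes into the medulla, stood at 6076, 6489 and 6187 CPM in mTEClo and 517, 667 and 1011 CPM in mTEChi. It was the largest loss in CPM of the comparison, 8.54-fold (log2 -3.09, SE 0.21, edgeR adjusted p = 1.26e-08), and mTEChi replicate 3 was the highest of its group. Ccl21a and Ccl21b are near-identical copies, so the split of fragments between them is uncertain. Per length the fall was from 15162 TPM, the second highest level in cHyper mTEClo, to 1914 TPM. The basal keratin genes Krt5 and Krt14 fell from 4827, 5483 and 5369 to 1078, 1238 and 1690.1 CPM and from 2345, 2625 and 1977 to 479, 576 and 574 CPM. Krt5 and Krt14 were 3.91-fold and 4.27-fold lower, and as large losses in CPM they were picked among genes without overlap.

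Several genes that anchor basal epithelium to its matrix fell as well. Bcam, a laminin receptor, went from 433, 406 and 309 to 35.6, 46.6 and 46.1 CPM (log2 -3.16, SE 0.16, edgeR adjusted p = 6.20e-10). The laminin chain genes Lama3 and Lamb3 fell 5.82-fold and 6.18-fold, and the hemidesmosome integrin gene Itgb4 2.47-fold. Pdpn, or podoplanin, fell 6.01-fold and Trp63, the p63 factor that maintains thymic epithelial progenitors, 4.68-fold, from 736, 684 and 623 to 135, 138 and 164 CPM. Of 16 members 13 fell, with a list median of -1.85, beside 25.8% of all genes lower and 38.7% higher. Among all genes at 100 to 1000 CPM in WT mTEClo 61.8% fell (median -0.43), and at 1000 CPM or more 58.7% (median -0.58). The list was not matched for level. The 3 members of the list that rose were Dpp4, a surface peptidase, at 0.845, 0.781 and 0.651 CPM against 11.6, 9.87 and 8.43 CPM, the basal keratin gene Krt15 at 2.01, 0.988 and 2.24 CPM against 13.2, 14.2 and 14.3 CPM, and the hemidesmosome collagen gene Col17a1 (1.89-fold).

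The other large losses in CPM included secreted and structural genes. Ctsl, the lysosomal protease cathepsin L, fell from 3082, 2915 and 2879 to 219.6, 277 and 295 CPM and Igfbp5, a binding protein of insulin-like growth factors, from 3395, 3149 and 2705 to 295, 269 and 391 CPM. The actin crosslinker gene Flna fell 6.04-fold, the matrix gene Tnc 2.77-fold, Krt17 2.15-fold and Sprr2a2 9.88-fold, the last with near-identical copies. In log2 terms the largest fall under the naming rule was that of Sntn, known from cilia, at 2.06, 1.88 and 3.95 CPM in mTEClo and 0.197, 0.0461 and 0.0822 CPM in mTEChi (log2 -4.48, SE 0.74, edgeR adjusted p = 9.25e-05). It was followed by Thbd, or thrombomodulin, at 112, 84.5 and 80.3 CPM against 4.76, 4.38 and 5.75 CPM (18.8-fold lower), Dpp6 (17.03-fold lower) and the collagen crosslinking enzyme gene Lox (16.2-fold lower). Scarf2, Angptl4, the Wnt receptor gene Fzd2, Rcn3, Sult5a1 and Mrgprf completed the 10, at 13.8-fold to 16.02-fold lower.

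The largest rises by log2 were genes with no fragment in any cHyper mTEClo library, and their folds are lower bounds that take 3 fragments in the whole group as the floor. Slc17a6 (chromosome 7, 51622006 to 51671119, ENSMUSG00000030500), a glutamate transporter of neurons, held 0 fragments in mTEClo and 10.9, 9.15 and 7.93 CPM in the mTEChi libraries, at least 357-fold higher. Zp3, an egg coat protein, reached 9.15, 8.62 and 8.76 CPM (at least 330.5-fold), Agtr2, an angiotensin receptor, 10.7, 8.34 and 6.29 CPM (at least 329.8-fold), and Amelx, an enamel protein, 7.63, 8.41 and 10.2 CPM (at least 316-fold). Each of the 4 genes was at 0 in all mTEClo libraries and above 6 CPM in all mTEChi libraries. Also among the 10 were Mgat4c (at least 266-fold), Dppa1, known from early embryos (243), the antimicrobial lectin gene Reg3a (243), the RNA-binding protein gene Igf2bp1 (187) and the skin gene Lce1m (175), where each number is the lower bound of the fold.

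Antigens known to depend on Aire rose in cHyper mTEChi. Csn2 (chromosome 5, 87692624 to 87699630, ENSMUSG00000063157), the milk protein beta-casein, stood at 4.22, 7.97 and 9.36 CPM in mTEClo and 720.2, 737 and 498 CPM in mTEChi. The lowest mTEChi library was replicate 3, as for Aire, and the rise was 91.8-fold (log2 6.52, SE 0.33, edgeR adjusted p = 7.15e-10). Csn1s2a, another casein gene, rose from 0.137, 0.276 and 0.163 to 28.1, 19.9 and 29.9 CPM, Fabp9, a fatty acid binding protein of testis, from 1.28, 1.68 and 2.20 to 51.7, 59.1 and 75.3 CPM, and Pcp4, a Purkinje cell gene, from 0.297, 0.735 and 0.407 to 18.6, 30.2 and 37.8 CPM. Ins2, an insulin gene, went from 0.0228, 0.115 and 0.0407 to 8.42, 10.1 and 14.2 CPM, with mTEChi replicate 3 the highest. Crisp1 of the epididymis had 2 fragments in mTEClo and 1054 in mTEChi, a ratio of 520.4 with a 95% counting interval of 144 to 4303. Of 14 members 13 were tested and 13 were called higher, beside 38.7% of all genes. Their median was 6.52, or 6.15 with members at 0 set to their bound. Of the 13, 9 reached the filter's level through mTEChi alone, so that they had to differ to be tested. The other member, Spt1, was not matched by symbol.

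Liver and pancreas antigens behaved alike, with an exception. Apoa1, an apolipoprotein of liver and gut, stood at 0.754, 0.689 and 1.59 CPM in mTEClo and 65.2, 70.3 and 75.7 CPM in mTEChi (74.4-fold, log2 6.22, SE 0.36, edgeR adjusted p = 2.16e-09), and no libraries overlapped. Apob rose 99.8-fold, the fibrinogen gene Fgg 61.8-fold and Gcg, which encodes glucagon, 57.2-fold. Alb, which encodes albumin, had 3 fragments in mTEClo and 1482 in mTEChi, a ratio of 488 (95% counting interval 167 to 2368). Genes already present in mTEClo rose less, such as Trf, or transferrin, from 22.9, 17.3 and 16.5 to 93.6, 81.6 and 81.5 CPM and Serpinc1, or antithrombin, from 23.7, 23.3 and 24.1 to 45.9, 50.5 and 50.4 CPM. Crp, the acute-phase C-reactive protein, fell from 68.1, 60.4 and 69.7 to 34.5, 29.4 and 27.7 CPM, a 2.16-fold fall with no overlap (log2 -1.11, SE 0.12, edgeR adjusted p = 2.10e-06). Of 27 members 26 were tested, of which 25 rose and 1 fell (median 5.45, or 5.10 at the bound), beside 38.7% of all genes higher and 25.8% lower. Of the 26, 13 reached the filter's level through mTEChi alone, so that they had to differ to be tested.

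**Figure D3:**
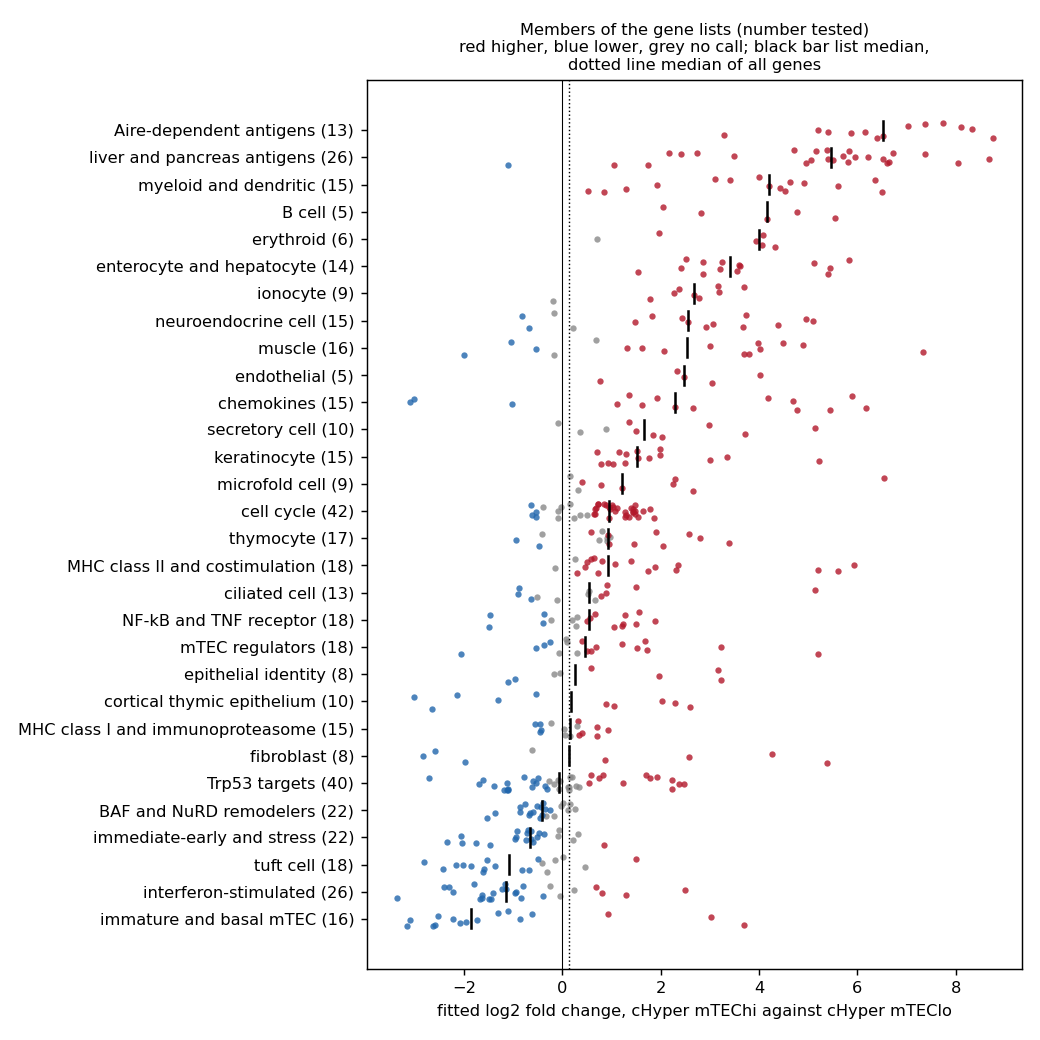
Fitted log2 fold change of each tested member of 30 gene lists, with the number tested in parentheses, red where called higher, blue where called lower and grey where not called; black bars are list medians and the dotted line is the median of all tested genes (0.13). Medians run from -1.85 for the immature and basal list to 6.52 for the Aire-dependent antigens, and several lists hold members on both sides of 0.

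Programs of the cell types that mTEC imitate mostly rose, and the tuft cell program fell. Dclk1, a kinase that marks tuft cells, stood at 249, 186 and 196 CPM in mTEClo and 50.3, 40.4 and 50.6 CPM in mTEChi, and every mTEClo library was above every mTEChi library (4.46-fold lower, log2 -2.16, SE 0.15, edgeR adjusted p = 1.40e-08). The taste channel gene Trpm5 fell 3.02-fold, the taste G protein gene Gnat3 5.37-fold, the cytokine gene Il25 6.999-fold and the leukotriene pathway genes Alox5 and Alox5ap 3.07-fold and 3.64-fold. Replicate 2 was the lowest mTEClo library in Dclk1, Trpm5, Gnat3, Il25, Alox5 and Alox5ap. Pou2f3, the master regulator of tuft cells, held 41.1, 41.6 and 33.5 CPM and 41.4, 31.7 and 31.4 CPM. Those groups overlapped and the gene had no call (log2 -0.15, SE 0.14, edgeR adjusted p = 0.338). The transcription factor gene Gfi1b rose, from 2.33, 0.505 and 3.05 to 5.94, 4.45 and 5.80 CPM. Of 18 members 12 fell and 1 rose (2 rose in several alternatives), with a median of -1.09, beside 25.8% of all genes lower and 38.7% higher.

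Neuroendocrine genes rose by contrast. Insm1, a transcription factor of endocrine cells, went from 13.9, 20.7 and 21.4 to 233, 222 and 258 CPM (12.8-fold, log2 3.68, SE 0.19, edgeR adjusted p = 1.06e-09), with the groups far apart. Resp18 rose 30.8-fold, the prohormone convertase gene Pcsk2 20.95-fold and the vesicle protein gene Syp 7.53-fold. Scg5, a chaperone of Pcsk2, fell from 40.1, 33.2 and 22.5 to 18.4, 20.2 and 21.4 CPM, and Cplx2, a regulator of vesicle release, fell 1.77-fold. In all 11 of 15 rose and 2 fell (median 2.56), beside 38.7% and 25.8% of all genes. Enterocyte and hepatocyte genes rose in 14 of 14 members (median 3.41), beside 38.7% of all genes. Apoa4, an apolipoprotein of the gut, rose from 2.72, 4.37 and 9.93 to 220.1, 232 and 258 CPM, and its highest mTEClo library, replicate 3, was far below the lowest mTEChi library. The gut genes Lypd8, Fabp2 and Vil1, or villin, rose 34.7-fold, 56.8-fold and 9.55-fold.

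Skin, ionocyte and muscle programs rose too. Keratinocyte genes rose in 15 of 15 members (median 1.51), beside 38.7% of all genes. Grhl3, a factor of barrier formation, rose from 2.08, 2.83 and 2.93 to 29.8, 27.3 and 21.9 CPM. The keratin genes Krt10 and Krt77 rose 3.95-fold and 7.998-fold and the protease gene Klk5 37.5-fold. Ionocyte genes rose in 8 of 9 (median 2.67), beside 38.7% of all genes. The lineage factor Foxi1 stood at 3.68, 2.99 and 2.52 CPM against 23.1, 18.97 and 21.2 CPM. The chloride channel gene Cftr stood at 5.14, 7.01 and 8.06 CPM against 30.9, 31.1 and 35.3 CPM. Muscle genes rose in 11 of 16 and fell in 3 (median 2.53), beside 38.7% of all genes higher and 25.8% lower. Of the 16, 2 reached the filter's level through mTEChi alone. Myh3, the embryonic myosin heavy chain, rose from 0.160, 0.299 and 0.203 to 39.2, 34.9 and 35.97 CPM, and Chrna1, the muscle acetylcholine receptor subunit that is the target in myasthenia gravis, from 0.571, 0.781 and 0.814 to 9.52, 12.4 and 12.2 CPM. Acta1, or skeletal actin, fell from 10.9, 11.2 and 12.7 to 3.82, 2.19 and 2.55 CPM and Des, or desmin, 2.07-fold, while the myogenic factor Myog had no call (log2 -0.18, edgeR adjusted p = 0.247).

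Ciliated, secretory and microfold lists were less uniform than the keratinocyte list. Mcidas, which starts multiciliated differentiation, rose from 0.365, 0.391 and 0.855 to 21.7, 17.1 and 14.3 CPM (35.3-fold) and Foxj1, the master factor of motile cilia, 1.89-fold, while Trp73 and the dynein gene Dnah11 fell 1.87-fold and 1.55-fold. Of 13 ciliated cell genes 5 rose and 3 fell (median 0.54), near the shares of all genes (38.7% and 25.8%). Of 10 secretory genes 7 rose (median 1.67), beside 38.7% of all genes. Scgb1a1, the club cell secretoglobin, rose from 1.10, 1.24 and 2.56 to 26.1, 19.1 and 16.5 CPM. In the secretory list 2 members reached the filter's level through mTEChi alone. In the microfold list 7 of 9 rose (median 1.22), beside 38.7% of all genes. The factor Sox8 stood at 2.79, 1.86 and 3.54 CPM against 6.69, 5.46 and 6.70 CPM. The chemokine gene Ccl20 stood at 9.36, 7.54 and 23.1 CPM against 74.4, 82.5 and 90.5 CPM. Gp2, the bacterial uptake receptor of microfold cells, had no call (log2 0.31, edgeR adjusted p = 0.194). The list's largest rise was that of Siglec1, which macrophages also express, from 0.114, 0.184 and 0.244 to 17.6, 17.01 and 14.1 CPM, next to the rise of myeloid markers given above.

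Most chemokine genes rose, beside the fall of Ccl21a. Ccl22 and Ccl17, ligands of CCR4 on thymocytes, rose from 7.35, 16.5 and 11.5 to 654, 712 and 723 CPM and from 0.411, 0.437 and 0.936 to 22.2, 25.7 and 25.4 CPM. All mTEChi libraries were above all mTEClo libraries (59.1-fold and 43.8-fold). Ccl5 rose 25.7-fold, Cxcl13, which draws B cells, 27.3-fold, Ccl25 4.88-fold and Cxcl9 3.79-fold. Cxcl12 fell from 174, 164 and 186 to 15.9, 16.8 and 32.6 CPM and Cxcl16 from 146, 145 and 127 to 62.4, 66.6 and 76.9 CPM. With Ccl21a, 3 of 15 fell and 12 rose (median 2.29), beside 25.8% of all genes lower and 38.7% higher. The summed level of the 15 went from 6822 to 7218 CPM in the mTEClo libraries to 2736 to 3358 CPM in the mTEChi libraries with the fall of Ccl21a. Dendritic cells also express several of these chemokines, and the part of the myeloid transcripts in these rises was not tested.

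Outside the class II genes the largest gains in CPM, a scale that also depends on gene length, were those of Ubd, a ubiquitin-like modifier, from 229, 289.6 and 283 to 2104, 2216 and 2331 CPM, and Srgn, the granule proteoglycan serglycin, from 279.7, 352 and 304 to 1925, 2148 and 2063 CPM. Aire was the next, and the endoplasmic reticulum chaperone genes Hspa5 and Hsp90b1 rose 2.80-fold and 2.17-fold, and S100a14 5.24-fold. Of the class I pathway, Calr, or calreticulin, rose from 888, 1246 and 1071 to 1882, 2272 and 1949 CPM, whereas the peptide transporter genes Tap1 and Tap2 fell 1.34-fold and 1.37-fold and the trimming peptidase gene Erap1 1.47-fold. B2m had no call (log2 0.15, edgeR adjusted p = 0.281). In that list 6 of 15 rose and 4 fell, near the shares of all genes (38.7% and 25.8%), and 3 rose when cHyper mTEClo replicate 1, cHyper mTEClo replicate 3 or cHyper mTEChi replicate 2 was left out.

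Genes induced by interferons fell as a list, while a few of its members rose. Promoter windows of 4 members, from 250 bases before to 50 after the annotated start (RefSeq, GRCm38.p6), are printed because their genes went different ways: Isg15 and Ifit3 fell, Rsad2 and Oasl1 rose. Capitals mark GAAANNGAAA, a core shared by interferon-stimulated response elements, searched on both strands, so that TTTCNNTTTC is the same motif read on the other strand. The windows are Isg15 at chr4:156200769-156201068 (minus strand), Ifit3 at chr19:34583279-34583578 (plus), Rsad2 at chr12:26456403-26456702 (minus) and Oasl1 at chr5:114922990-114923289 (plus), each written 5′ to 3′ on the strand of its gene.
Isg15: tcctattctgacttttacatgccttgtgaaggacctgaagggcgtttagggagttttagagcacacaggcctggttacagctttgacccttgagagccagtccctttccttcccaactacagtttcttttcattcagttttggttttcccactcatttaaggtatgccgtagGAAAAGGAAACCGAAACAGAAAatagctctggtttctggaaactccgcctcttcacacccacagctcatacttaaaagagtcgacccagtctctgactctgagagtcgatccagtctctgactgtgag
Ifit3: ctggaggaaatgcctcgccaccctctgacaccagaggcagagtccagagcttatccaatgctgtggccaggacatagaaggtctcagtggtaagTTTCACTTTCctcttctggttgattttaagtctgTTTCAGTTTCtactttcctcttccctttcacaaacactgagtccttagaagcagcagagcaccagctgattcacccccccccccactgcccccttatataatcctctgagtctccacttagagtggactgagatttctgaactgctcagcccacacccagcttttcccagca
Rsad2: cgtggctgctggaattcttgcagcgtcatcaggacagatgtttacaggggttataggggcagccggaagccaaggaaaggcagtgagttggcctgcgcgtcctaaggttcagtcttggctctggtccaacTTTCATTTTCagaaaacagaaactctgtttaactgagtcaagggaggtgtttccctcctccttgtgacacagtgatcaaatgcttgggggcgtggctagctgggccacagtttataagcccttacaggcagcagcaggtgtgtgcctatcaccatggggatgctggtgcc
Oasl1: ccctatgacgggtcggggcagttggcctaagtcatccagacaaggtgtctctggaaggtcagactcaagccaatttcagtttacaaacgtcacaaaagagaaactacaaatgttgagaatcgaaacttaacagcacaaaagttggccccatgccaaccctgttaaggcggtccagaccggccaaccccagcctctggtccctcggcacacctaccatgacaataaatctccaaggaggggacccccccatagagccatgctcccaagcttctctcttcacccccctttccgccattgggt
The Isg15 window held 3 overlapping matches, Ifit3 held 2, Rsad2 held 1 and Oasl1 held 0. Of 26 list members 19 had a window and 11 of these held a match, against 3.99% of 27025 genes with a window of that length. By direction in cHyper the match was present in 8 of 14 members that fell, 1 of 2 that rose and 2 of 3 with no call.

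Isg15, a ubiquitin-like modifier, stood at 57.96, 92.1 and 72.9 CPM in cHyper mTEClo and 25.1, 29.8 and 28.6 CPM in cHyper mTEChi, and Ifit3, an antiviral RNA-binding protein, at 97.99, 128 and 116 CPM and 28.9, 33.1 and 36.1 CPM. All mTEClo libraries lay above all mTEChi libraries in both genes (2.67-fold and 3.49-fold lower). Ifi27l2a fell most, from 474, 474 and 499 to 38.1, 49.6 and 52.4 CPM (log2 -3.37, SE 0.20, edgeR adjusted p = 3.17e-09). The factors that carry the interferon signal fell as well: Stat2 2.74-fold, Irf9 3.18-fold and Irf7 2.21-fold, the last from 80.4, 112 and 82.7 to 36.6, 43.03 and 44.97 CPM. The RNA sensor gene Ddx58, which encodes RIG-I, fell 4.96-fold and Bst2, or tetherin, 2.83-fold.

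Against that direction, Oasl1, which restrains translation of Irf7, rose from 6.30, 7.58 and 6.59 to 37.2, 37.9 and 40.7 CPM. Its groups were far apart (5.64-fold, log2 2.50, SE 0.16, edgeR adjusted p = 5.95e-09). Rsad2, or viperin, rose from 8.18, 9.77 and 12.2 to 24.6, 27.2 and 21.7 CPM, Usp18, which removes ISG15 and dampens the receptor, from 113, 139 and 121 to 214, 224 and 215 CPM, and Mx1, an antiviral GTPase, from 13.9, 20.2 and 16.1 to 26.1, 29.3 and 25.8 CPM. Ifit1, Ifit2 and Ifih1 had no call. Ifit2 was called higher in 3 of 20 alternatives and Ifih1 lower in 4, among them the replicate block (-0.26, edgeR adjusted p = 0.0221). Of 26 members 19 fell, 4 rose and the list median was -1.15, beside 25.8% of all genes lower and 38.7% higher. By level, 44.4% of all genes at 10 to 100 CPM in WT mTEClo fell, and 61.8% at 100 to 1000 CPM. The list was not matched for level. The summed level of the list went from 3252 to 3606 CPM in the mTEClo libraries to 1449 to 1610 CPM in the mTEChi libraries. The call of Oas3 (log2 -0.40, edgeR adjusted p = 0.0282) ended when cHyper mTEChi replicate 1, cHyper mTEChi replicate 2 or cHyper mTEClo replicate 2 was left out (0.057 to 0.102), with library totals as scaling (0.177) and with replicates 1 and 2 only (0.0634), and by the DESeq2 adjusted p (0.0523).

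**Figure D4:**
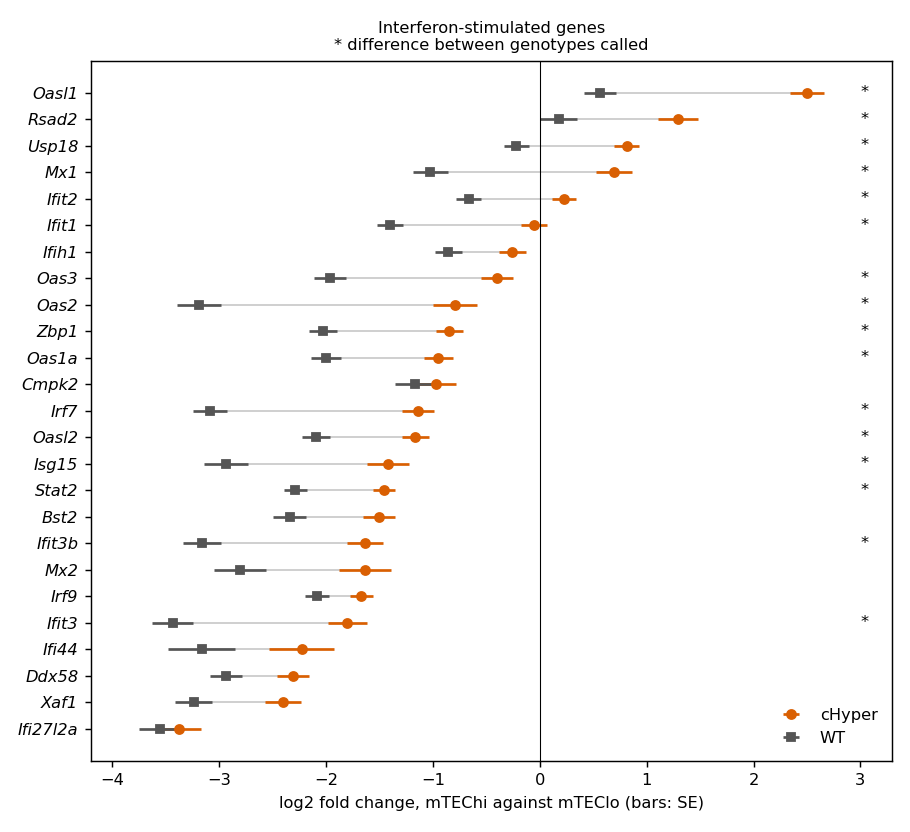
Log2 fold change between mTEChi and mTEClo of interferon-stimulated genes (all but 1 of the list), in cHyper as orange circles and in WT as grey squares, with bars of 1 SE and an asterisk where the difference between the genotypes was called. The cHyper point lies to the right of the WT point for each gene shown, and 16 differences carry an asterisk.

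Immediate-early genes fell, the family that cells switch on within minutes of a stimulus. Fos stood at 517, 580.4 and 546 CPM in mTEClo and 81.2, 113 and 131 CPM in mTEChi, with no overlap (5.06-fold lower, log2 -2.34, SE 0.21, edgeR adjusted p = 1.68e-07). Its partner gene Jun fell 4.09-fold, Fosb 4.19-fold, Egr1 3.39-fold and the stress factor gene Atf3 2.79-fold. Hsph1, a chaperone of the HSP110 family, rose from 45.7, 73.5 and 77.4 to 98.7, 124 and 129.9 CPM. Of 22 members 17 fell and 1 rose (up to 3 in the alternatives), with a median of -0.67, beside 25.8% of all genes lower and 38.7% higher. Among all genes at 10 to 100 CPM in WT mTEClo 44.4% fell, and at 100 to 1000 CPM 61.8% fell (median -0.43). The members were not matched for level.

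Trp53 itself (chromosome 11, 69580359 to 69591873, ENSMUSG00000059552) was lower in cHyper mTEChi. It stood at 165, 177 and 154 CPM in mTEClo and 135, 129 and 138 CPM in mTEChi, close but without overlap (log2 -0.30, SE 0.08, edgeR adjusted p = 0.005). With library totals as scaling the call ended (log2 -0.14, edgeR adjusted p = 0.142). The RNA level of Trp53 is no check of the genotype label, whose allele is not described in the sources used here.

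Trp53 target genes went both ways. Cdkn1a (chromosome 17, 29090976 to 29100727, ENSMUSG00000023067), the cell cycle inhibitor p21 and a classical target, rose from 32.1, 28.4 and 31.7 to 109.6, 92.5 and 96.3 CPM, with every mTEChi library above every mTEClo library (3.24-fold, log2 1.69, SE 0.12, edgeR adjusted p = 2.34e-08). Pmaip1, the cell death gene NOXA, rose from 40.5, 37.3 and 41.4 to 206, 175 and 181 CPM and Sesn2, a stress-response inhibitor of mTORC1, from 23.5, 28.5 and 26.2 to 124, 133 and 110.0 CPM. Gadd45a rose 3.78-fold, the growth factor gene Tgfa 5.54-fold, the death receptor gene Fas 2.34-fold and Mdm2, the ubiquitin ligase that degrades p53, 1.49-fold.

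Other targets fell. Pltp, a phospholipid transfer protein, went from 488, 485 and 363 to 59.2, 60.8 and 83.4 CPM and Perp, a desmosome protein of epithelia, from 664, 694 and 649.8 to 239, 249 and 273 CPM. Phlda3, an inhibitor of Akt, fell 3.06-fold. Eda2r (chromosome X, 97333840 to 97377216, ENSMUSG00000034457), a receptor of ectodysplasin A2, fell from 26.9, 25.3 and 23.6 to 8.31, 7.54 and 7.65 CPM, and no libraries overlapped (3.23-fold lower, log2 -1.69, SE 0.17, edgeR adjusted p = 8.23e-07). Zmat3 had no call (log2 0.11, edgeR adjusted p = 0.295). Of 40 targets 12 rose, 16 fell and 12 had no call, with a median of -0.06, beside 38.7% of all genes higher and 25.8% lower.

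Cell cycle genes mostly rose, by a count that depended on the libraries used, while 4 subunits of the replicative helicase fell. Aurka, a mitotic kinase, stood at 4.41, 7.12 and 5.41 CPM in mTEClo and 19.6, 19.8 and 22.03 CPM in mTEChi (3.62-fold), and Melk, a kinase of dividing cells, rose from 7.97, 13.03 and 11.4 to 38.6, 31.9 and 40.1 CPM (3.42-fold). Top2a, the DNA topoisomerase of dividing cells, rose from 38.8, 57.1 and 57.6 to 171, 185 and 120.4 CPM, with mTEClo replicate 1 the lowest of its group (3.11-fold, log2 1.64, SE 0.30, edgeR adjusted p = 0.000215). Of the helicase subunits, Mcm7 and Mcm4 fell from 48.96, 50.5 and 45.99 to 30.3, 31.9 and 33.3 CPM and from 53.4, 55.1 and 56.4 to 38.7, 35.8 and 39.3 CPM. Of 42 genes 30 rose and 4 fell (median 0.94), beside 38.7% of all genes higher and 25.8% lower. Without cHyper mTEClo replicate 1 only 19 of the 42 rose (median 0.66), closer to the share of all genes. The count was 20 when only replicates 1 and 2 were used and 23 without cHyper mTEChi replicate 2. Across the alternatives it ran from 19 to 31, and 18 rises were called in every alternative.

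Subunits of the BAF and NuRD chromatin remodelers tended to be lower in mTEChi, by small amounts. Mta1, of NuRD, fell from 102, 95.9 and 73.2 to 30.2, 29.9 and 33.5 CPM and the methyl-DNA binding subunit gene Mbd2 from 89.7, 96.02 and 62.3 to 35.95, 29.7 and 30.9 CPM. Neither pair of groups overlapped (2.89-fold and 2.57-fold lower). Arid1b, of BAF, fell 1.82-fold, and Smarca4, the BAF ATPase BRG1, had no call (log2 0.15, edgeR adjusted p = 0.15). Of 22 subunits 15 fell and 7 had no call (median -0.42), beside 25.8% of all genes lower, and 11 of the falls were called in every alternative. Many genes of such levels fell: of all genes at 100 to 1000 CPM in WT mTEClo 61.8% fell (median -0.43). At 10 to 100 CPM there 44.4% fell (median -0.24).

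General epithelial genes went both ways. Epcam and Krt8 had no call (log2 -0.17, SE 0.13, and -0.06, SE 0.10, both of which changed sign with library totals as scaling), Cdh1, or E-cadherin, and Krt18 fell 2.15-fold and 1.96-fold, and the tight junction genes Cldn4 and Cldn7 rose from 25.7, 28.7 and 42.4 to 274, 297 and 298 CPM and from 18.2, 14.5 and 21.5 to 160.5, 170.1 and 176 CPM. Genes known from cortical epithelium went both ways, 5 of 10 in each direction, beside 38.7% of all genes higher and 25.8% lower. Il7, the survival cytokine of thymocytes, fell from 414, 327 and 361 to 79.1, 74.8 and 96.5 CPM, Prss16, the thymus-specific protease, 2.48-fold and Ackr4, a chemokine scavenger, 6.29-fold, and Dll4, the Notch ligand of T cell commitment, rose from 9.48, 5.63 and 9.28 to 43.1, 52.5 and 52.3 CPM.

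Transcripts of other thymic cell types were also higher in cHyper mTEChi. Lyz2, the lysozyme of macrophages, stood at 12.6, 12.6 and 27.8 CPM in mTEClo and 452, 454 and 394 CPM in mTEChi (24.8-fold), C1qb, a complement gene of macrophages, at 0.0913, 0.368 and 0.366 CPM and 19.96, 23.6 and 21.7 CPM, and Adgre1, which encodes F4/80, at 0.137, 0.184 and 0.0814 CPM and 14.1, 16.02 and 9.41 CPM. In these 3 genes the mTEChi libraries were all far above the mTEClo libraries. Of 15 myeloid and dendritic markers 15 rose (median 4.20), beside 38.7% of all genes. Of the 15 markers, 5 reached the filter's level through mTEChi alone, so that they had to differ to be tested. Of 7 B cell markers 5 were tested and rose, with the factor Pax5 at 1.39, 0.827 and 2.03 CPM against 41.6, 38.9 and 31.1 CPM and the list summing to 6.27 to 6.83 CPM and 59.8 to 74.6 CPM.

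Thymocyte genes rose in 9 of 17 and fell in 2, or 1 in some alternatives (median 0.93), beside 38.7% and 25.8% of all genes. Cd4 stood at 1.07, 2.23 and 2.85 CPM against 20.7, 20.2 and 21.7 CPM and Tcf7 at 7.95, 13.5 and 12.6 CPM against 75.7, 85.3 and 76.5 CPM. The list summed to 117 to 126 CPM in mTEClo and 205 to 234 CPM in mTEChi. Endothelial genes (5 of 6 tested, 5 higher) summed to at most 21.1 CPM in mTEChi and erythroid genes (5 of 6 higher) to at most 51.5 CPM. Of the endothelial genes 2 reached the filter's level through mTEChi alone, so that they had to differ to be tested, and of the erythroid genes 1. Fibroblast genes went both ways, with Col1a1 rising from 1.28, 2.25 and 1.59 to 69.4, 64.9 and 81.1 CPM and Dcn, or decorin, falling from 87.6, 111 and 104 to 22.4, 26.5 and 27.7 CPM. Antigens of many tissues are transcribed by mature mTEC, and the part of other cells in these transcripts was not tested.

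The change in cHyper was then set against the same change in WT. In WT 69.5% of genes were called, 40.2% higher and 29.4% lower, against 38.7% and 25.8% in cHyper. Of the rises in cHyper 92.6% were also called in WT, where they made up 89.2% of the rises, and of the falls 89.5% were also called in WT, where they made up 78.5%. Opposite calls numbered 35 genes that rose in cHyper and fell in WT and 20 the other way. Among the 20922 genes above, the median absolute log2 change was 0.617 in cHyper and 0.729 in WT. The difference itself was called for 595 of 28932 genes (2.06%), 327 higher (1.13%) and 268 lower (0.926%) in cHyper. With the replicate number as a block these counts were 684 and 502, and with replicates 1 and 2 only 161 and 121. The count of higher genes fell to between 170 and 216 without cHyper mTEClo replicate 2, cHyper mTEChi replicate 2 or 3, or WT mTEChi replicate 1, 2 or 3. The count of lower genes fell to between 152 and 175 without cHyper mTEChi replicate 1, 2 or 3 or WT mTEChi replicate 2 or 3. Of the 327, 175 fell in both genotypes and 50 fell in WT with no call in cHyper, and of the 268, 182 rose in both.

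Aire had a smaller rise in cHyper than in WT, where it went from 11.3, 16.1 and 15.4 to 1917, 1922 and 1917 CPM. The WT mTEClo libraries lay below all cHyper mTEClo libraries, and the WT mTEChi libraries above all cHyper mTEChi libraries (difference of log2 changes -1.87, SE 0.23, edgeR adjusted p = 0.000941). Irf4 rose less as well (-0.82, SE 0.14). Krt14 fell less, its WT mTEChi libraries standing at 243, 258 and 222 CPM and all cHyper mTEChi libraries above them (1.10, SE 0.18, edgeR adjusted p = 0.00569). Krt15 held 21.8, 31.8 and 31.5 CPM in WT mTEClo and 33.98, 29.9 and 34.9 CPM in WT mTEChi with no call, so that its rise was called in cHyper and larger there (2.81, SE 0.31, edgeR adjusted p = 0.000392). Ly6a fell less in cHyper (1.42, SE 0.18). For Ccl21a the difference (1.22, SE 0.28, edgeR adjusted p = 0.0379) was no longer called after leaving out any 1 library other than replicate 1 of cHyper mTEChi or of WT mTEClo (0.0508 to 0.0945), nor with replicates 1 and 2 only (0.118).

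Of the 26 interferon-stimulated genes 16 fell less or rose more in cHyper, beside 1.13% of all genes with a higher change there. Of the 16 differences 11 were called in every alternative. The summed level of the 26 genes was 6594 to 8392 CPM in WT mTEClo against 3252 to 3606 CPM in cHyper mTEClo. In mTEChi it was 1604 to 1942 CPM in WT against 1449 to 1610 CPM in cHyper. Oas2 went from 52.1, 67.2 and 56.7 to 7.40, 6.77 and 5.01 CPM in WT and from 5.18, 7.81 and 7.45 to 3.75, 3.11 and 5.06 CPM in cHyper (2.39, SE 0.29, edgeR adjusted p = 0.000799). Irf7 went from 474, 609 and 516 to 65.1, 70.00 and 53.1 CPM in WT (1.94, SE 0.21). The largest gap for both genes was between the mTEClo libraries of the genotypes. Mx1 fell in WT, from 82.7, 120.0 and 79.3 to 49.1, 48.9 and 40.4 CPM, and rose in cHyper (1.72, SE 0.23). The differences of Isg15 (1.52), Ifit3 (1.63) and Oas1a (1.05) were not called with replicates 1 and 2 only (edgeR adjusted p = 0.104, 0.0567 and 0.0704).

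Cxcl10, an interferon-induced chemokine, rose in cHyper from 181, 184 and 202 to 436, 523 and 492 CPM and had no call in WT, at 569, 718 and 424 CPM and 457, 522 and 476 CPM (1.59, SE 0.22). Of the stress genes Atf3 fell less in cHyper (1.10, SE 0.20), and Hspb1, a small heat shock protein, fell in WT and had no call in cHyper (1.53, SE 0.19), although a rise was called in 7 of 20 alternatives, among them the replicate block (0.32, edgeR adjusted p = 0.0172). Crp fell less (1.24, SE 0.18), and the keratinocyte gene Krtdap rose in cHyper from 19.5, 17.5 and 24.3 to 34.7, 33.8 and 36.1 CPM and fell in WT from 68.3, 79.9 and 68.2 to 44.1, 32.9 and 21.5 CPM (1.91, SE 0.28).

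Among Trp53 targets the differences that were called in every alternative were those of Eda2r and Zmat3. Eda2r rose in WT, from 1.27, 1.78 and 1.27 to 9.78, 8.52 and 6.09 CPM, and fell in cHyper. The mTEChi libraries of the genotypes overlapped, while every WT mTEClo library lay far below every cHyper mTEClo library (-4.17, SE 0.26, edgeR adjusted p = 2.44e-06). Zmat3 rose in WT from 41.1, 40.3 and 37.7 to 84.2, 81.8 and 71.9 CPM and had no call in cHyper (-0.89, SE 0.13).

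By the size of the difference, Cpz (chromosome 5, 35502218 to 35525698, ENSMUSG00000036596), a secreted carboxypeptidase, was lowest against WT. It held 40.3, 42.9 and 42.4 CPM in cHyper mTEClo and 19.5, 19.96 and 23.4 CPM in cHyper mTEChi, against 0, 0.0694 and 0.0469 CPM and 6.47, 6.84 and 6.74 CPM in WT, so that it fell in cHyper and rose in WT (-8.36, SE 0.34, edgeR adjusted p = 1.39e-08). Astl, an egg protease, rose in both genotypes and less in cHyper (-5.37, SE 0.46), and the receptor gene Ret rose in WT and had no call in cHyper (-0.98, SE 0.19). Col3a1, a fibrillar collagen, fell more in cHyper (-1.94, SE 0.33). At the other end stood Gpr20, an orphan receptor, at 0.0685, 0.0689 and 0.0814 CPM in cHyper mTEClo and 3.33, 3.13 and 3.41 CPM in cHyper mTEChi (4.42, SE 0.47, edgeR adjusted p = 0.000365). Ms4a10 (3.70, SE 0.45) and C1ql2 (3.56, SE 0.38) rose in cHyper and fell in WT. Ifi213, of the interferon-inducible PYHIN family, fell in WT and had no call in cHyper (3.31, SE 0.41).

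**Figure D5:**
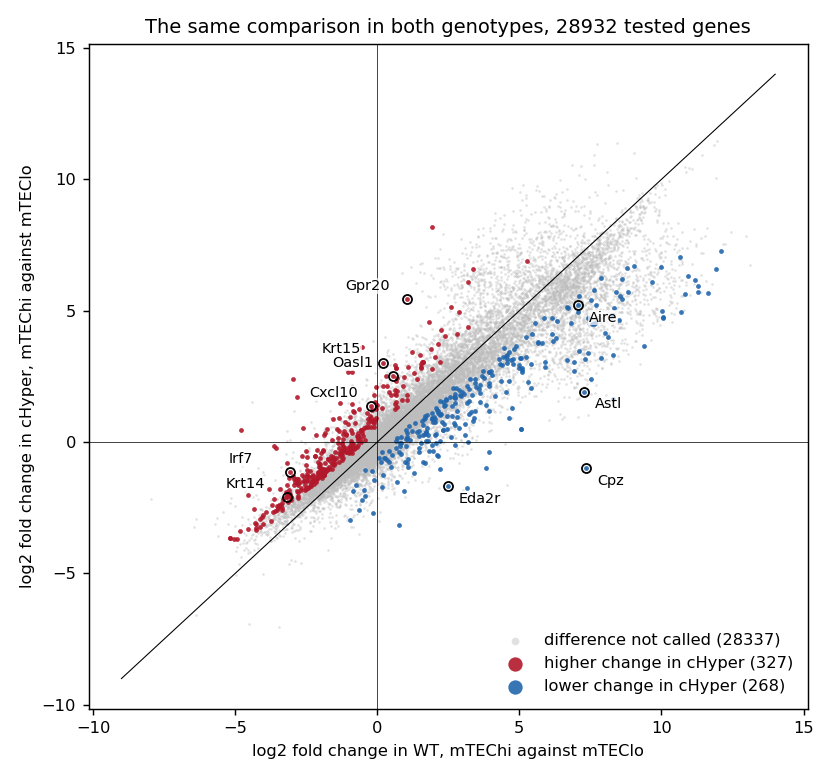
Log2 fold change between mTEChi and mTEClo in cHyper against that in WT, 1 point per tested gene with the line of equal change, red where the change was higher and blue where it was lower in cHyper by the test of the difference. Most genes follow the line, the 327 red points lie above it mainly among genes that fell, and the 268 blue points lie below it mainly among genes that rose.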

How the data were processed

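RNA of sorted mTEC was sequenced as paired-end libraries of polyadenylated RNA with strand marking, per the labels' protocols. The deposited counts are whole fragments per gene, and the TPM values next to them are the authors' own, per the file headers. TPM recomputed from the deposited counts and gene lengths differed by at most 0.207. The submitters' processing notes name mm10 as the build, TopHat2 2.1.1, Subread 2.0.1 with its featureCounts, and SAMtools 1.9; the strand setting of the counting is not given in the sources used here. Runs of 1 replicate were combined in 1 deposited column.

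The counts of all 12 libraries were filtered with filterByExpr (28932 of 51810 genes kept), scaled by TMM and tested with edgeR 4.0.16 (quasi-likelihood F test on 4 group means, 8 residual degrees of freedom, two-sided, Benjamini-Hochberg adjustment over all genes, threshold 0.05) in R 4.3.3. Libraries were mapped to groups by their titles. Alternatives were RLE scaling, library totals, no filter, DESeq2 1.42.0, voom of limma 3.58.1, only the groups compared, a replicate block, replicates 1 and 2 only, and leaving out each library. Same-numbered mTEClo and mTEChi libraries deviated together from their group means (r = 0.189, 0.219 and 0.281 in cHyper, 0.292, 0.198 and 0.397 in WT). Pairs of unlike number ran from -0.201 to 0.0419 in cHyper and from -0.297 to 0.0974 in WT. Between replicates 1 and 2, the pairs of unlike number had r = 0.0419 and 0.0314 in cHyper and 0.0974 and 0.0347 in WT. Replicate 3 of every group shared low depth and high Xist. The values of r alone do not establish that the numbers mark pairs. The main test took no account of the numbers, and the replicate block was run as an alternative. Equal-depth gene numbers were compared by an exact permutation test.

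The comparison, gene lists and members were chosen with earlier results of these data known. The genes named were Trp53, Aire, Fezf2 and Cdkn1a; the 10 largest rises and 10 largest falls by log2 fold change and by mean CPM, among those called, averaging 1 CPM or more in the cHyper libraries and without overlap of groups, without predicted genes, pseudogenes, unnamed clones and receptor segments; up to 6 members of each list by p; the 8 largest differences from WT each way among genes averaging 1 CPM or more; and list members called there. Members of the interferon-stimulated, Trp53 target, MHC class II and regulator lists could all be named. Some genes that the rule names are not reported here. Chosen after their values were seen were Acta1, B2m, Col17a1, Cplx2, Cxcl16, Des, Epcam, Gcg, Gfi1b, Gp2, Hsph1, Il25, Ins2, Itgb4, Krt8, Lama3, Myog, Nfkb2, Pou2f3, Scg5, Serpinc1, Smarca4, Trf and Trp63. Of 479 distinct list genes 3 were not matched by symbol and 2 were under the filter. Besides the lists where it is stated, 1 member each of the neuroendocrine, enterocyte and hepatocyte, ionocyte, chemokine, thymocyte and B cell lists reached the filter's level through mTEChi alone. Promoter windows came from a RefSeq table of GRCm38.p6. Counting intervals (95%) and floors cover counting error only.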

Additional observations from a re-analysis of the deposited data

Results flagged for a closer look

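The change from mTEClo to mTEChi differed between cHyper and WT by the test of the difference itself (edgeR, adjusted p under 0.05) for the following 35 genes, and each value here is the log2 change in cHyper minus that in WT. Rises that were smaller in cHyper were those of Aire (-1.87), Irf4 (-0.823) and Astl (-5.37). Rises called in WT only were those of Ret (-0.979) and Zmat3 (-0.885), and opposite calls, lower in cHyper and higher in WT, were those of Eda2r (-4.17) and Cpz (-8.36). Col3a1 fell more in cHyper (-1.94).

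Falls that were smaller in cHyper were those of the immature mTEC genes Ccl21a (1.22), Krt14 (1.1) and Ly6a (1.42), of Crp (1.24) and of the stress factor gene Atf3 (1.1). Krt15 (2.81) and Cxcl10 (1.59) rose in cHyper with no call in WT, and Gpr20 rose more in cHyper (4.42). Krtdap (1.91), Ms4a10 (3.7) and C1ql2 (3.56) rose in cHyper and fell in WT. Hspb1 (1.53) and Ifi213 (3.31) fell in WT with no call in cHyper.

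In the interferon-stimulated list 14 of the 16 called differences are given here: those of Irf7 (1.94), Stat2 (0.833), Isg15 (1.52), Ifit1 (1.34), Ifit2 (0.892), Ifit3 (1.63), Mx1 (1.72), Oas1a (1.05), Oas2 (2.39), Oas3 (1.56), Oasl1 (1.93), Oasl2 (0.926), Usp18 (1.03) and Zbp1 (1.18). The differences of Ccl21a, Isg15, Ifit3 and Oas1a were not called in every alternative, and the other 31 were.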

How the results depend on the processing

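Of 223 genes named in the text or plotted with interferon genes, 206 were called in the cHyper comparison and 202 of these calls held in each of 20 alternatives, the exceptions being Trp53, Oas3, Hdac3 and Chd4. Of the genes with no call, Ciita, Relb, Ifit2, Ifih1, Hspb1, B2m, Smarca4, Zmat3, Gp2, Myog and H2-DMa were called in 1 to 8 alternatives each. Against the main fit, the median over the genes each setting tested moved by 0.165 with library totals, 0.153 without the filter and 0.243 with DESeq2. The last 2 settings also took in genes under the filter, so their shifts are not of scaling alone. Over the same 18 class II and costimulation genes the median was 0.93 in the main fit, 0.89 without the filter and 0.98 with DESeq2. With library totals the changes of H2-DMa (0.0233), Pou2f3 (0.0175), Ret (0.00339), Ifit1 (0.106), Epcam (0.00229) and Krt8 (0.108), none of them called, turned positive, and that of Ifi213 did so without cHyper mTEClo replicate 2 (0.181, in a range of -0.612 to 0.181 with 1 library left out). The cause was not tested. Genes called higher in cHyper mTEChi numbered 10673 to 11632 and those lower 6684 to 7988 when 1 library was left out.

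Genes whose change was higher and lower in cHyper than in WT (327 and 268) numbered 571 and 532 without the filter, 638 and 768 with DESeq2, 161 and 121 with replicates 1 and 2 only, and 170 to 316 and 152 to 355 with 1 library left out. With the replicate number as a block, which takes libraries of the same number in all groups together, they were 684 and 502, and the counts in cHyper were 11536 and 8155. In the cHyper comparison the block ended no call of a named gene and added those of Ciita, Relb, Ifih1 and Hspb1. At unadjusted p under 0.05 the difference counted 4123 genes. The difference in detected genes at equal depth kept its direction in its alternatives, and with 3 libraries a group its exact p could not fall below 0.1. Depth limits the folds of genes at 0 fragments in mTEClo to lower bounds.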
